A study of Mus musculus with 8 samples.

Results

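The genes described here are 40 that copy DNA or feed that process. They load and start the replicative helicase, synthesise and join the strands, make deoxynucleotides, rebuild chromatin behind the fork, or drive cells from G1 into S phase. They were listed by symbol for their known roles, with earlier results of these data known, and 37 of them are among the 16593 genes that the array's probes name. The RNA came from natural regulatory T cells, the CD4+GFP+ fraction of B6.FoxP3-GFP mice. These are C57BL/6 animals in which green fluorescent protein marks cells that express the regulatory T cell factor Foxp3. There were 4 arrays titled G-CSF, from treatment with the growth factor that mobilises stem cells, and 4 titled naive, whose treatment label is saline, so these mice may have been injected or untreated. Age, sex, dose and timing are not given in the labels. They also leave unsaid whether replicates are different animals, pools or aliquots, so p-values measure the spread between these arrays, which may be technical.

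Before S phase, the origin recognition complex, Cdc6 and Cdt1 load rings of the Mcm2 to Mcm7 helicase onto DNA, and the loaded ring is later switched on by Cdc45, the GINS complex and Mcm10. Polymerases then extend primers behind the fork, held on DNA by the PCNA clamp, while ribonucleotide reductase, thymidine kinase and thymidylate synthase supply deoxynucleotides. Transcription of much of this machinery is controlled by the E2F factors, and regulatory T cells turn over faster than most other CD4+ T cells in mice. Which cells of these samples carried this RNA, dividing or resting, was not measured. In RNA from many cells, a larger share of cells in S phase and more RNA per such cell cannot be told apart.

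The intensities and the detection p-values of the table disagree about the groups. A brighter probe must have an equal or lower detection p-value on its own array, yet 0 of 8 arrays met this with the p-values placed beside them. Each met it with the p-values of the opposite group's array of equal number. Labels of the intensity columns are used here, so every "higher" or "lower" turns round if those columns are the ones out of place. Median raw intensity was 144.2 ± 26.0 in G-CSF arrays and 122.0 ± 2.99 in naive arrays (SD, n = 4 each; 2-sided exact permutation p = 0.0286, the smallest that 4 against 4 allows, adjusted p = 0.0571 over 2 array measures). G-CSF replicates 3 and 4 were the brightest at 180.8 and 145. Between 9588 and 10519 probes were detected on an array (10251 ± 239.5 in G-CSF arrays, 10026 ± 420.2 in naive arrays, SD, n = 4 each; 2-sided exact permutation p = 0.40, adjusted p = 0.40). Of the 12 regulatory T cell markers, 11 had a named probe and all 11 of these, Foxp3 included, were well above background.

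Promoter sequence is shown first because E2F control is what these genes are known to share. RefSeq windows from 250 bases before to 50 bases after a transcript start (mouse build GRCm38.p6) were found for 34 of the 40 genes, 39 windows in all. Pole, Gins1, Gins2, Mcm4, Rfc2 and Ccne2 had none. The E2F words searched were TTTCCCGC, TTTGGCGC, TTTCGCGC and TTTGCCGC on both strands, which may overlap each other. At least 1 stood in 12 of the 39 windows (30.8%), each from a different gene, against 2.26% of all 32851 windows. Windows of these genes also held more CG pairs (median 24 against 7 in all windows), and the words themselves contain CG. Windows with a match belonged to Orc1, Cdc6, Cdt1, Mcm3, Mcm5, Mcm6, Mcm7, Pola1, Pold1, Rfc3, Lig1 and Uhrf1.

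Of the 4 windows below, Tk1 is shown as the 1 gene called, Mcm6 and Mcm7 as ring subunits of opposite change, and Mcm5 for a pair of matches laid out as in Mcm6. E2F words of either strand are in capitals. In Mcm5 (chr8:75109259-75109558, plus strand) and Mcm6 (chr1:128359656-128359955, minus strand) matches on opposite strands overlapped, starting 153 and 149 bases before the start in Mcm5 and 110 and 106 before it in Mcm6. Mcm6 had a further match 47 bases before the start. Mcm7 (chr5:138171834-138172133, minus strand) had 1 match 165 bases before the start and 1 just after it. Another Mcm7 window, at a different transcript start (chr5:138171217-138171516, minus strand) and not shown, held 0 matches. The window of Tk1 (chr11:117825965-117826264, minus strand), the gene with the smallest p of those measured, held none of these words, which says only that these letters are not in this window.
Mcm5: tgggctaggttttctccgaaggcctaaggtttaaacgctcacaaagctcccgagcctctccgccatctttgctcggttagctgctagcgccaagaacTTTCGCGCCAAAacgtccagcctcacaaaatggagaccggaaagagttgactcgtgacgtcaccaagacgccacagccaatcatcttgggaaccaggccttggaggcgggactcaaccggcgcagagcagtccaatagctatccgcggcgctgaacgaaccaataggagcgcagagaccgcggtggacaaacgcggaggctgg
Mcm6: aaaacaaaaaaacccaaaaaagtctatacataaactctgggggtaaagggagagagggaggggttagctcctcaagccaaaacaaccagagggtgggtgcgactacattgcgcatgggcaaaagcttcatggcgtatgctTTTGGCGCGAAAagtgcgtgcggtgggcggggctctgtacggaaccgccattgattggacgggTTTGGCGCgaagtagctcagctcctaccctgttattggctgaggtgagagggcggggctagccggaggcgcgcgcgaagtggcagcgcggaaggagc
Mcm7: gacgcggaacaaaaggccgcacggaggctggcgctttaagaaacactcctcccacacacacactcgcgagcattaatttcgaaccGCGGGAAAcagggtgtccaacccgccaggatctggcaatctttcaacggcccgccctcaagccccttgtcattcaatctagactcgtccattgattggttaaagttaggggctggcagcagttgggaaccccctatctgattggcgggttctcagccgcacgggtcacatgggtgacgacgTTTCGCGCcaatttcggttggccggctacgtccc
Tk1: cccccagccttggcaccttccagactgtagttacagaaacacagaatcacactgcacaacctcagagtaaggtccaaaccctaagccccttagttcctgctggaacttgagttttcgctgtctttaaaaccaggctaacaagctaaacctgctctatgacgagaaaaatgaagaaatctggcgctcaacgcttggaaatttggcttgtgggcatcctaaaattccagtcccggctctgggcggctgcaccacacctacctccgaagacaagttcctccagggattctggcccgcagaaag

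Of the 40 genes, 37 had a named probe and 33 had 1 well above background, meaning detected at p under 0.01 on 4 or more of the 8 arrays. Gins1, Gins2 and Rfc3 had no probe named for them here. Orc1, Pola1 and Ccne2 were detected on 0 arrays and Prim1 on 1 array of each group, so these 4 have no change to report. In all, 42 of 60 probes were kept, and each gene below is described by its brightest kept probe unless another is named. Values are background-corrected, quantile-normalised log2 intensities, and every change is G-CSF minus naive on that scale, where an added offset of 16 understates the change of dim probes.

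Thymidine kinase 1 was the only 1 of the 33 measured genes to pass the test, while most of the others had positive changes that did not pass. Of the 33 measured genes 25 had a positive change, against 49.5% of all 10205 probes tested, and their median log2 change was 0.27 (quartiles 0.00 and 0.43), against -0.01 over all probes. Tk1 was the 1 gene called at a limma adjusted p under 0.05, and it rose, where 2.20% of all probes were called, 0.951% as higher and 1.24% as lower. At an unadjusted limma p under 0.05, 11 of the 33 genes were higher and 1 lower, against 12.7% and 12.1% of all probes. Groups did not overlap for 7 genes, all higher in G-CSF arrays, against 6.78% of all probes higher and 6.85% lower. All 5 nucleotide supply genes had a positive change, while origin licensing genes were divided, 5 positive and 4 negative.

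**Figure D1:**
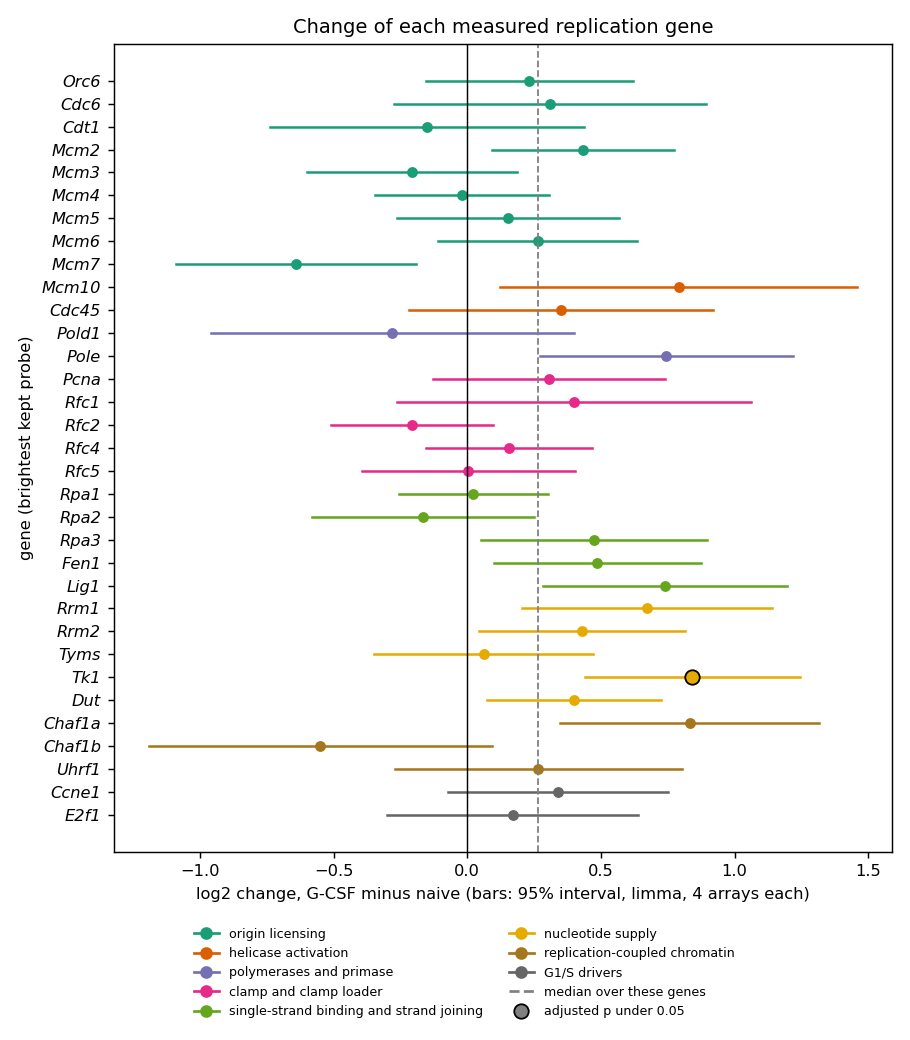
Log2 change, G-CSF minus naive, of the 33 measured replication genes (brightest kept probe, horizontal axis), with 95% intervals from limma over 4 arrays each, coloured by role. Tk1 at 0.84 is the 1 gene called, Mcm7 lies lowest at -0.64, and the dashed line marks the median of 0.27.

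The median SE of a change was 0.19 over these genes, and the unadjusted 95% interval reached a median of 0.41 to either side. With 4 arrays each, a change under about that size mostly could not be told from 0 even before adjustment. A call asked for more, since Chaf1a at 0.83 and Mcm10 at 0.79 were not called, so a gene not called may still have changed. Leaving out 1 array mattered. Without naive replicate 1, limma called 6 of the 33 genes (Tk1, Lig1, Rfc1, Mcm10, Chaf1a and Pole) and 1089 of all 10205 probes. Without naive replicate 3 it called 0 of the 33 genes and 1 of all probes, and the genes' median change was 0.13. Without the bright G-CSF replicates 3 and 4, limma called 0 of the 33 genes (5 at an unadjusted p under 0.05) and 0 of all probes (1439 unadjusted), while 25 genes still had a positive change with a median of 0.21.

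Nucleotide supply held the called gene. Tk1, which salvages thymidine by phosphorylating it, had log2 intensities of 9.61, 9.30, 9.91 and 9.86 in G-CSF replicates 1 to 4, against 9.17, 8.84, 8.58 and 8.72 in naive replicates 1 to 4. Every G-CSF array lay above every naive array. The change was 0.84 ± 0.18 (SE, n = 4 each; limma adjusted p = 0.0477), or 1.79-fold. A dimmer Tk1 probe had 7.04, 6.95, 6.99 and 7.08 in G-CSF replicates 1 to 4, against 6.50, 6.91, 5.91 and 5.93 in naive replicates 1 to 4. These groups were apart too, by little at naive replicate 2, and the change of 0.70 ± 0.21 had a limma adjusted p of 0.0884, with 2 of 4 naive arrays well above background. The call of the brighter probe kept its direction in all 24 alternatives and was lost in 12 of them, with limma adjusted p between 0.00148 and 0.260. With 1 array left out it was kept only without G-CSF replicate 1 (0.86) or naive replicate 1 (0.95), and was lost without G-CSF replicates 2 (0.97), 3 (0.76) or 4 (0.78) and without naive replicates 2 (0.85), 3 (0.76) or 4 (0.81). The bright G-CSF replicates 3 and 4 were the highest on this probe. Its change was 0.62 without both of them (limma adjusted p = 0.260), and 1.06 for these 2 replicates against all naive arrays.

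Ribonucleotide reductase makes deoxynucleotides from ribonucleotides, and Rrm1 encodes its large subunit. Rrm1 had log2 intensities of 10.26, 10.05, 10.99 and 10.85 in G-CSF replicates 1 to 4, against 9.95, 9.99, 9.65 and 9.88 in naive replicates 1 to 4. The groups did not overlap, and the bright replicates 3 and 4 were the highest. Its change was 0.67 ± 0.21 (limma adjusted p = 0.0948), made of 0.29 for replicates 1 and 2 and 1.05 for replicates 3 and 4, each against all naive arrays. Rrm2, the small subunit whose level follows the cell cycle, had 8.70, 8.73, 8.67 and 8.61 in G-CSF replicates 1 to 4, against 8.53, 8.56, 7.95 and 7.95 in naive replicates 1 to 4. G-CSF arrays were close together and naive arrays were in a higher and a lower pair, with a change of 0.43 ± 0.17 (limma adjusted p = 0.164). A dimmer Rrm2 probe had 0.07 ± 0.29, with overlapping groups (limma adjusted p = 0.896).

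Tyms, the thymidylate synthase that makes the same nucleotide by the other route, had log2 intensities of 10.22, 9.67, 10.31 and 9.90 in G-CSF replicates 1 to 4, against 9.95, 10.30, 9.68 and 9.93 in naive replicates 1 to 4. The groups overlapped throughout, and the change was 0.06 with a 95% interval of -0.35 to 0.47 (limma adjusted p = 0.864). Dut, the dUTPase that keeps uracil out of DNA, had a change of 0.40 ± 0.15 (limma adjusted p = 0.136). The interval of Tyms reaches up to 0.47 and that of Tk1 down to 0.44, and the difference between these genes was not tested.

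**Figure D2:**
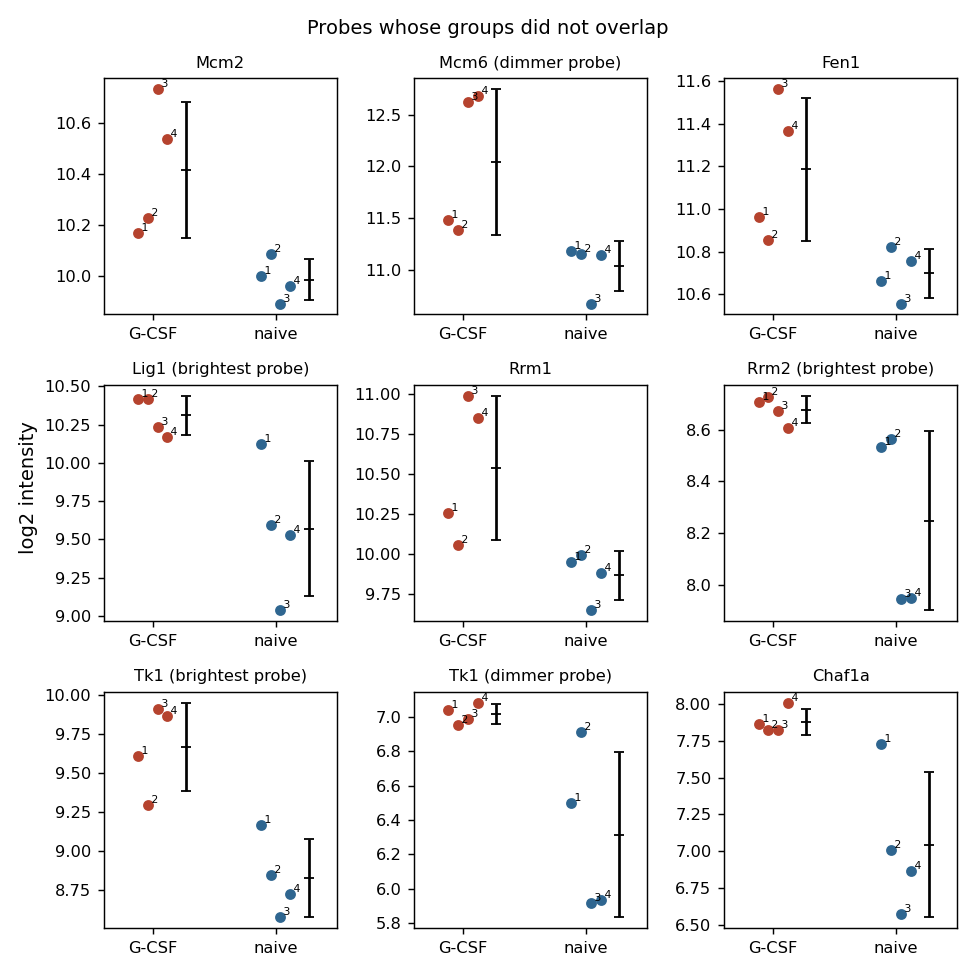
Log2 intensity per array (points, numbered by replicate) with mean and SD (black) for the 9 probes of 8 replication genes whose G-CSF and naive arrays did not overlap; each panel has its own vertical scale. In Mcm2, Mcm6, Fen1, Rrm1 and the brighter Tk1 probe the bright G-CSF replicates 3 and 4 stand above replicates 1 and 2. In Lig1 and Chaf1a naive replicate 1 lies nearest to the G-CSF arrays.

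Of the licensing genes none was called. Mcm2, a ring subunit, had log2 intensities of 10.17, 10.23, 10.73 and 10.54 in G-CSF replicates 1 to 4, against 10.00, 10.08, 9.89 and 9.96 in naive replicates 1 to 4. It was the 1 licensing gene whose groups did not overlap on the brightest probe, with a change of 0.43 ± 0.15 (limma adjusted p = 0.125). Mcm4 had 12.94, 12.75, 12.88 and 12.83 in G-CSF replicates 1 to 4, against 13.19, 12.87, 12.74 and 12.67 in naive replicates 1 to 4. All G-CSF arrays lay within the range of the naive arrays, and the change was -0.02 with an interval of -0.34 to 0.30. Mcm5 had 12.32, 12.24, 11.87 and 11.89 in G-CSF replicates 1 to 4, against 12.20, 12.21, 11.56 and 11.75 in naive replicates 1 to 4. Both groups divided into a higher pair, replicates 1 and 2, and a lower pair, and the change was 0.15 (interval -0.26 to 0.57).

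Mcm6 was measured by 3 kept probes that differed in size. Its brightest probe had log2 intensities of 11.92, 11.84, 12.10 and 12.37 in G-CSF replicates 1 to 4, against 12.01, 11.97, 11.55 and 11.64 in naive replicates 1 to 4, which overlapped (change 0.26 ± 0.17, limma adjusted p = 0.348). The second had 11.48, 11.38, 12.62 and 12.68 in G-CSF replicates 1 to 4, against 11.18, 11.15, 10.67 and 11.15 in naive replicates 1 to 4. Its groups were apart, with G-CSF replicates 3 and 4 more than 1 log2 unit above replicates 1 and 2. The change of this probe was 1.00 ± 0.30 (limma adjusted p = 0.0857), made of 0.39 for replicates 1 and 2 and 1.61 for replicates 3 and 4. The third probe had 0.24 ± 0.13 (limma adjusted p = 0.289). The files do not say which transcripts each probe matches.

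The other licensing genes had changes of 0.31 for Cdc6, the ATPase that helps to load the ring, 0.23 for the origin recognition subunit Orc6, -0.15 for the loader Cdt1, -0.21 for Mcm3 and -0.64 for Mcm7. Mcm7, singled out here after its values were seen, was the most negative of the 33 genes. It had log2 intensities of 7.32, 6.68, 7.20 and 6.75 in G-CSF replicates 1 to 4, against 7.95, 7.62, 7.20 and 7.74 in naive replicates 1 to 4. Naive replicate 3 lay within the G-CSF range, and the change of -0.64 ± 0.20 had a limma adjusted p of 0.0962. It was negative in all 24 alternatives, from -0.78 to -0.03. The Mcm2 to Mcm7 subunits act as 1 ring, and their changes on the brightest probes ran from -0.64 for Mcm7 to 0.43 for Mcm2. Each probe reads its own gene, and the differences between subunits were not tested.

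Genes that switch the helicase on had positive changes and wide spread among naive arrays. Mcm10, a factor of fork firing, had log2 intensities of 9.14, 8.74, 8.64 and 8.73 in G-CSF replicates 1 to 4, against 8.83, 8.33, 7.18 and 7.74 in naive replicates 1 to 4. Naive replicate 1 lay among the G-CSF arrays and the other naive arrays below them, with a change of 0.79 ± 0.30 (limma adjusted p = 0.147). Without naive replicate 1 the change was 1.06 (limma adjusted p = 0.0326), and without naive replicate 3 it was 0.51 (limma adjusted p = 0.309). Cdc45, a helicase subunit, had 8.17, 7.97, 7.65 and 7.69 in G-CSF replicates 1 to 4, against 7.88, 8.09, 6.86 and 7.25 in naive replicates 1 to 4. These overlapped, with naive replicate 3 lowest, and the change was 0.35 ± 0.26 (limma adjusted p = 0.410).

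Of the polymerase genes, the catalytic subunit of the leading-strand polymerase, Pole, had log2 intensities of 7.41, 7.12, 7.09 and 7.58 in G-CSF replicates 1 to 4, against 7.15, 6.57, 6.31 and 6.20 in naive replicates 1 to 4. Only naive replicate 1 reached the G-CSF range. The change was 0.74 ± 0.21 (limma adjusted p = 0.0803). It was 0.94 without naive replicate 1 (limma adjusted p = 0.0170) and 0.66 without naive replicate 3 (limma adjusted p = 0.193). Pold1, the catalytic subunit of the lagging-strand polymerase, had 11.52, 11.52, 10.14 and 10.52 in G-CSF replicates 1 to 4, against 11.46, 11.46, 10.96 and 10.94 in naive replicates 1 to 4. G-CSF replicates 1 and 2 were the highest of all arrays and replicates 3 and 4 the lowest, so that the change of -0.28 ± 0.31 (limma adjusted p = 0.587) was the mean of 0.32 for replicates 1 and 2 and -0.88 for replicates 3 and 4.

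No clamp or loader gene passed the test, 4 of the 5 measured had a positive change, and their median was 0.16. Rfc2, a loader subunit, had log2 intensities of 11.87, 11.73, 11.41 and 11.59 in G-CSF replicates 1 to 4, against 11.90, 11.81, 11.85 and 11.86 in naive replicates 1 to 4. G-CSF replicate 1 lay inside the narrow naive range and the other 3 below it, with a change of -0.21 (interval -0.51 to 0.10). Rfc4 had 10.05, 9.73, 9.95 and 9.94 in G-CSF replicates 1 to 4, against 9.86, 9.93, 9.55 and 9.71 in naive replicates 1 to 4. The groups overlapped, at 0.16 (interval -0.15 to 0.47), and a dimmer probe had -0.06. Pcna, the clamp itself, had 0.30 ± 0.20 (limma adjusted p = 0.353), with -0.02 for G-CSF replicates 1 and 2 and 0.63 for replicates 3 and 4. Rfc1, the large loader subunit, had 0.40 with a wide interval of -0.26 to 1.06 and was called without naive replicate 1, and Rfc5 had 0.00 ± 0.18.

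Among genes that coat and join the strands, Lig1 and Fen1 had groups that did not overlap. Lig1, the ligase that seals Okazaki fragments, had log2 intensities of 10.41, 10.42, 10.24 and 10.17 in G-CSF replicates 1 to 4, against 10.12, 9.60, 9.04 and 9.53 in naive replicates 1 to 4. G-CSF arrays lay close together and naive replicate 1 just below them, with a change of 0.74 ± 0.21 (limma adjusted p = 0.0751). It was 0.92 without naive replicate 1 (limma adjusted p = 0.0171) and 0.56 without naive replicate 3 (limma adjusted p = 0.173). The dimmer Lig1 probes, each well above background on 3 of 4 G-CSF arrays and 2 of 4 naive arrays, had 0.39 and 0.24. Fen1, the nuclease that trims the flaps between fragments, had 10.96, 10.85, 11.56 and 11.36 in G-CSF replicates 1 to 4, against 10.66, 10.82, 10.56 and 10.76 in naive replicates 1 to 4. Replicate 2 of each group almost met, and the change was 0.49 ± 0.18 (limma adjusted p = 0.127).

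The replication protein A subunits, which coat unwound DNA as a trimer, did not pass the test, and the differences between them were not tested. Rpa1 had log2 intensities of 13.95, 13.89, 13.62 and 13.85 in G-CSF replicates 1 to 4, against 13.79, 13.79, 13.83 and 13.79 in naive replicates 1 to 4. Naive arrays lay inside the G-CSF range, at 0.02 with an interval of -0.26 to 0.30. Rpa3 had 11.18, 11.07, 11.80 and 11.75 in G-CSF replicates 1 to 4, against 10.75, 11.05, 11.11 and 10.98 in naive replicates 1 to 4. G-CSF replicate 2 lay within the naive range, replicate 1 just above it and the bright replicates well above it, with a change of 0.47 ± 0.19 (limma adjusted p = 0.162). Rpa2 had -0.17 on its brightest probe and 0.28 on the other.

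Chromatin behind the fork is rebuilt by chromatin assembly factor 1, whose large and middle subunits are Chaf1a and Chaf1b. Chaf1a had log2 intensities of 7.86, 7.82, 7.82 and 8.01 in G-CSF replicates 1 to 4, against 7.73, 7.01, 6.58 and 6.87 in naive replicates 1 to 4. The groups did not overlap, although naive replicate 1 came near, and the change was 0.83 ± 0.22 (limma adjusted p = 0.0651). It was 1.06 without naive replicate 1 (limma adjusted p = 0.0128) and 0.68 without naive replicate 3 (limma adjusted p = 0.169). Chaf1b had 10.11, 10.04, 8.93 and 9.05 in G-CSF replicates 1 to 4, against 10.31, 10.41, 9.70 and 9.90 in naive replicates 1 to 4. Here G-CSF replicates 1 and 2 lay among the naive arrays and the bright replicates 3 and 4 far below, so the change of -0.55 ± 0.29 (limma adjusted p = 0.266) was -0.01 for replicates 1 and 2 and -1.09 for replicates 3 and 4. Uhrf1, which carries DNA methylation through replication, had 11.47, 11.01, 10.91 and 10.97 in G-CSF replicates 1 to 4, against 11.37, 11.11, 10.22 and 10.61 in naive replicates 1 to 4. These overlapped (change 0.27, interval -0.27 to 0.80).

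The G1/S drivers did not pass the test. Cyclin E1 (Ccne1), the partner of CDK2 at S phase entry, had log2 intensities of 7.11, 7.19, 7.37 and 7.30 in G-CSF replicates 1 to 4, against 6.99, 7.32, 6.42 and 6.89 in naive replicates 1 to 4. Naive replicate 2 lay among the G-CSF arrays, and the change was 0.34 ± 0.19 (limma adjusted p = 0.282). E2f1, an activating E2F factor, had 8.42, 8.15, 8.13 and 8.34 in G-CSF replicates 1 to 4, against 8.53, 8.31, 7.47 and 8.05 in naive replicates 1 to 4. Naive replicate 1 was the highest of all arrays and naive replicate 3 the lowest, and the change was 0.17 with an interval of -0.30 to 0.64. Of the measured genes with an E2F word in a promoter window, 5 of 9 had a positive change (median 0.15). Of those with a window and no such word, 19 of 21 did (median 0.35). Lacking these words says only that these letters are not in the window, and the difference between these sets was not tested.

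**Figure D3:**
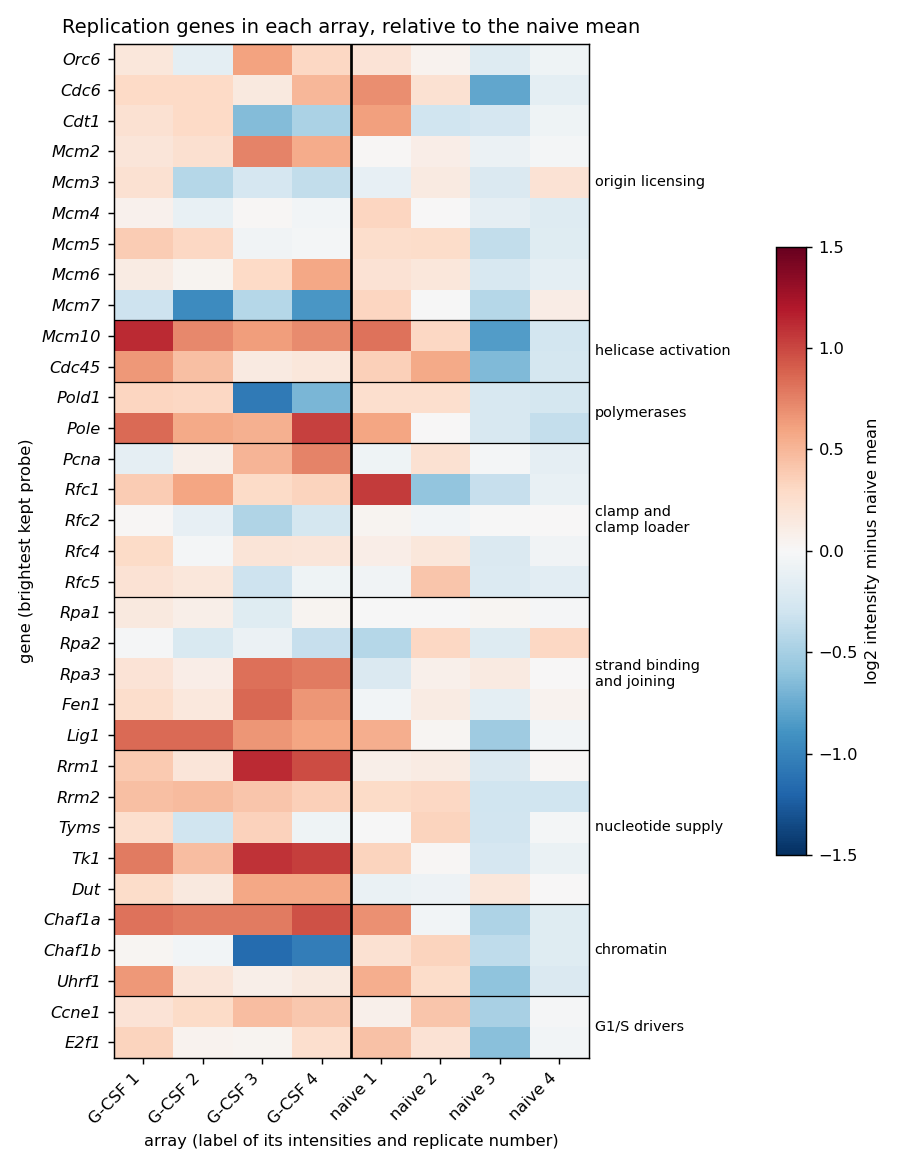
Log2 intensity of the 33 measured replication genes (rows, by role) in each array (columns), minus the mean of the naive arrays; red is higher. Naive replicate 3 is blue in most rows, naive replicate 1 is red in many, and Pold1 and Chaf1b change sides between G-CSF replicates 1 and 2 and replicates 3 and 4.

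The naive arrays differed among themselves in these genes as a body. Averaged over the 33 genes and set against the mean of the naive arrays, the log2 level was 0.32, 0.17, 0.20 and 0.23 in G-CSF replicates 1 to 4, against 0.24, 0.13, -0.29 and -0.09 in naive replicates 1 to 4. Naive replicate 1 lay among the G-CSF arrays, naive replicate 2 just below them, and the naive arrays clearly lower were replicates 3 and 4. Naive replicate 3 was the lowest naive array for 22 of the 33 genes (66.7%), against 17.5% of all kept probes, and naive replicate 1 the highest for 16 (48.5%), against 30.5%. The median SD between arrays was 0.24 in G-CSF and 0.29 in naive arrays for these genes, against 0.24 and 0.22 for all kept probes.

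Array brightness was set beside these genes as well. The bright G-CSF replicates 3 and 4 both lay above replicates 1 and 2 for 10 of the 33 genes (30.3%, against 32.3% of all kept probes) and both below for 13 (39.4%, against 31.2%). The part of brightness in the changes was not tested beyond leaving those arrays out.

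**Figure D4:**
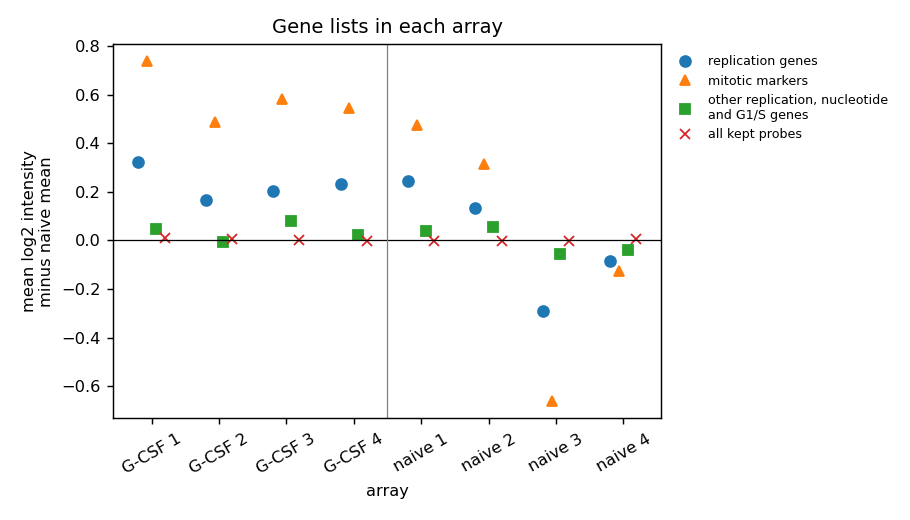
Mean log2 intensity per array, minus the naive mean, over the 33 replication genes, 12 mitotic markers, 75 other genes of replication, nucleotide synthesis and G1/S control, and all kept probes. Replication genes and mitotic markers are lowest in naive replicate 3 (-0.29 and -0.66), while the all-probe mean stays within 0.01 of 0.

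Lists of the wider pathway had medians nearer 0, a difference that was not tested. Of 44 other replication genes 27 were measured, 16 with a positive change, and 1 was called. That was Chtf18, a subunit of an alternative clamp loader, which rose by 0.85 ± 0.19 (limma adjusted p = 0.0488), with log2 intensities of 7.66, 7.35, 7.83 and 7.87 in G-CSF replicates 1 to 4, against 7.30, 6.62, 6.69 and 6.70 in naive replicates 1 to 4. The list's median was 0.08. Clspn, which encodes the fork checkpoint mediator claspin, had 1.01 ± 0.39 (limma adjusted p = 0.147), with naive replicate 1 at 8.72 above all G-CSF arrays and the other naive arrays at 7.12 or less. Of 29 other nucleotide synthesis genes 25 were measured and 0 called (3 higher and 3 lower at an unadjusted limma p under 0.05), with 10 positive and a median of -0.09. The largest changes of that list were those of the CTP synthase gene Ctps2 at -0.79 (limma adjusted p = 0.0576) and of Dtymk at -0.74 (limma adjusted p = 0.0746), the kinase that takes the product of Tk1 to the next phosphate.

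Of 29 other G1/S regulators 23 were measured, 12 with a positive change and a median of 0.02. Skp2, the ubiquitin ligase subunit that marks the CDK inhibitor p27 for degradation, was the 1 called. It rose by 0.76 ± 0.14 (limma adjusted p = 0.0471), with log2 intensities of 7.06, 7.06, 7.27 and 7.47 in G-CSF replicates 1 to 4, against 6.29, 6.48, 6.60 and 6.44 in naive replicates 1 to 4. Cdkn1b, the gene of p27, had 8.54, 8.55, 8.64 and 8.22 in G-CSF replicates 1 to 4, against 8.95, 9.06, 9.52 and 9.51 in naive replicates 1 to 4. Its groups were apart the other way, at -0.77 ± 0.17 (limma adjusted p = 0.0507). E2f4, a mostly repressive E2F factor, had 1.10 ± 0.31 (limma adjusted p = 0.0766). Its log2 intensities were 9.43, 9.90, 10.88 and 10.87 in G-CSF replicates 1 to 4, against 9.56, 8.95, 9.14 and 9.03 in naive replicates 1 to 4. The groups overlapped, and the bright G-CSF replicates 3 and 4 were the highest. Over these 3 lists together the median was 0.02 with 38 of 75 genes positive. The calls of Chtf18 and Skp2 were lost without any 1 of G-CSF replicates 2, 3 or 4 or naive replicates 2, 3 or 4. With 1 of these left out limma called 0 genes of these lists, and 1 to 10 of all probes against 224 with all arrays. It called 8 genes of these lists without G-CSF replicate 1 (712 of all probes) and 11 without naive replicate 1 (1089 of all probes).

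Genes of mitosis, the stage after S phase, had positive changes in all 12 measured of 17, with a median of 0.54. Aspm, a spindle pole gene, was called and was at least 1.10-fold higher in G-CSF arrays (limma adjusted p = 0.0471), being not well above background on any naive array. Aspm thus passed the detection filter through the G-CSF arrays alone. That favours a positive change, so neither its call nor its place among the 12 is support for a rise. Kif18b, a mitotic kinesin gene, was well above background on 2 of 4 naive arrays only by its brightest probe. The fitted change of that probe, 1.42 ± 0.39 (limma adjusted p = 0.0743), rests partly on naive values near background. A dimmer Kif18b probe was under the limit for a call, with a change of 1.3985 (limma adjusted p = 0.0476). Its mean log2 intensity in naive arrays was lower still, at 5.73 against 6.30, so its change may also rest on values near background. The mean over the 12 mitotic genes was 0.74, 0.49, 0.58 and 0.54 in G-CSF replicates 1 to 4, against 0.48, 0.31, -0.66 and -0.13 in naive replicates 1 to 4, so naive replicate 3 was again the lowest array.

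Markers of other cell types the sort could hold were measured beside these genes. No marker list had a called gene. The sums given here and in the next paragraph are of background-corrected, quantile-normalised intensities with the offset taken off. They run over every probe named for a list's genes, including probes not well above background, so they are not the level of the measured genes alone. Stem and progenitor markers were measured for 1 of 6 genes on the array, with Cd34, Meis1, Gata2, Hlf and Procr not well above background. Erythroid markers were measured for 3 of 6, with Klf1, Alas2 and Gata1 not well above background. Sums for this list were 2637 to 3637 in G-CSF arrays and 3005 to 4209 in naive arrays. The measured genes went both ways. The haemoglobin genes Hbb-bt and Hba-a1 had 1.01 ± 0.34 (limma adjusted p = 0.1055) and 0.38 ± 0.35 (limma adjusted p = 0.513). Hbb-bt was well above background on 4 of 4 G-CSF arrays and 2 of 4 naive arrays. The third measured gene had -0.36, with groups apart. Of the neutrophil markers 1 of 9 was measured, with sums of 212.5 to 501.8 in G-CSF arrays and 248 to 1455 in naive arrays. B cell markers were measured for 2 of 7, with sums of 3819 to 4482 in G-CSF arrays and 4311 to 5915 in naive arrays. Dendritic cell markers were measured for 3 of 8, with sums of 1023 to 1581 in G-CSF arrays and 1522 to 8339 in naive arrays.

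Naive replicate 1, the naive array with the most replication gene RNA, also had the most of the class II gene H2-Ab1, at a log2 intensity of 11.27 against 8.70 to 10.13 in the other naive arrays and 8.05 to 9.08 in G-CSF arrays. Monocyte markers were measured for 4 of 7, with sums of 2892 to 3980 in G-CSF arrays and 1548 to 3286 in naive arrays. CD8 and NK markers were measured for 4 of 8 and their sums did not overlap, at 4598 to 5975 in G-CSF arrays and 6041 to 7039 in naive arrays. T cell markers were measured for all 8 on the array, with sums of 117500 to 163000 in G-CSF arrays and 114000 to 125600 in naive arrays. The part of these markers in the replication gene values was not tested.

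**Figure D5:**
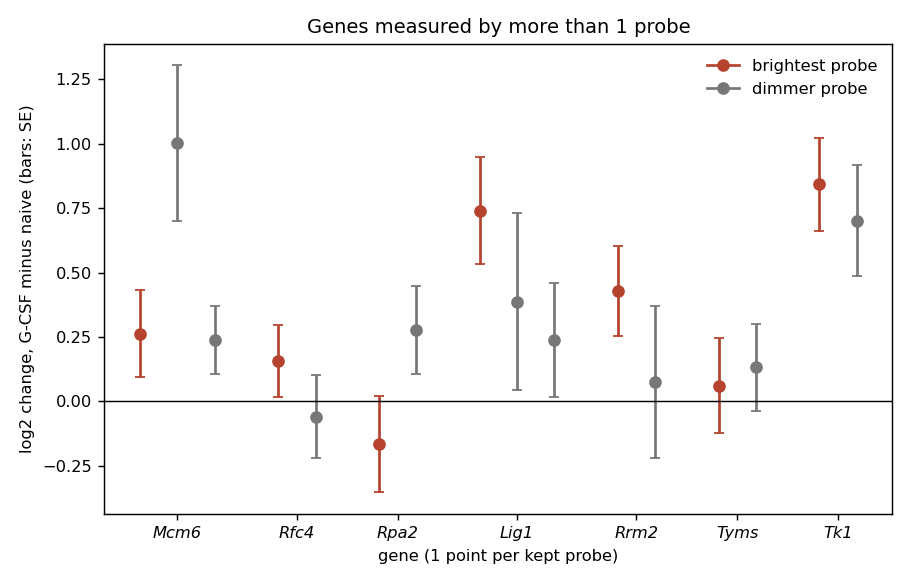
Log2 change, G-CSF minus naive, with SE for each kept probe of the 7 replication genes that have more than 1. The Tk1 probes lie at 0.84 and 0.70, the second Mcm6 probe at 1.00 stands away from its neighbours at 0.26 and 0.24, and the probes of Rfc4 and Rpa2 lie on either side of 0.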

How the data were processed

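Biotin-labelled RNA of the 8 samples was read on 1-colour Illumina MouseRef-8 v2.0 arrays. For 25697 probes the authors deposited non-normalised intensities, each with a detection p-value, per the file headers. The program was GenomeStudio, per the submitters' processing notes, which give no version. No background had been subtracted, since the lowest intensities were 70.3 to 82.3. A second deposited table holds log2 values. Recomputing showed them to be quantile-normalised log2 intensities centred on each probe's median (highest SD of the difference on an array 1.109e-04), and it served as an alternative.

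P-values were matched to the intensities with which they stood in order (tolerance 0.0001). Placed as in the table, 12.8% to 23.5% of the intensity steps ran against the order. The join rests on values and sets no sample's group. Background correction (normexp, using the p-values), an added offset of 16, quantile normalisation and log2 were applied with neqc (limma 3.58.1, R 4.3.3). The 10205 probes detected at p under 0.01 on 4 or more of 8 arrays were tested with limma's lmFit and eBayes, adjusted by Benjamini-Hochberg over all of them and called under 0.05. The code was tested on simulated data. Symbols were given to 23978 probes by the platform annotation, of which 23962 had their Entrez identifier in RefSeq's GRCm38.p6 table. Another 1719 probes are unnamed here.

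Members and lists were chosen with earlier results of these data known. Values in every array are given for genes called, genes whose groups did not overlap, and the 2 brightest of each of the 8 roles. Of other pathway lists and mitotic markers, called genes and the 2 largest changes are named. Alternatives were other background corrections, scalings, filters, variance models and probe rules, array weights, the p-value columns as placed, the replicate number as a block, and arrays left out. The labels name no slide, scan or batch, and the number of arrays limits the precision.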

Additional observations from a re-analysis of the deposited data

Results flagged for a closer look

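An array far from the other 3 of its group was found in 3 of the 68 groups of 4 arrays looked at over the kept probes of the 24 measured replication genes given array by array and 2 array measures, and chance gives about 1 in 20. Naive replicate 3 had a log2 intensity of 10.67 on the second Mcm6 probe, with the other naive arrays at 11.15 to 11.18. Naive replicate 1 had 6.55 on the dimmer Rfc4 probe, with the others at 6.83 to 6.86. Naive replicate 3 had 13.83 for Rpa1, with the others at 13.79.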

How the results depend on the processing

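Of the 24 measured replication genes given in every array, 17 kept the direction of their change in every alternative that gave them a value, and none reversed a called change. With 1 array left out, the number of all probes called ran from 1 to 1089 (224 with all arrays), that of replication genes called from 0 to 6 (1 with all), their median log2 change from 0.13 to 0.34 (0.27 with all), those with a positive change from 22 to 26 of 33 (25 with all), and the called genes of the other pathway lists from 0 to 11 (2 with all). Without both G-CSF replicates 3 and 4 limma called 0 of all probes, 0 replication genes and 0 of the other pathway genes, with 1439 probes at an unadjusted p under 0.05. Median scaling over all probes moved the median of all probes to 0.29 and gave 856 probes (810 higher and 46 lower, against 97 and 127), 6 replication genes, a median of 0.58 and 6 other genes. No normalisation between arrays moved the median of all probes to 0.59 and gave 0, 0, a median of 0.89 and 0, with 4038 probes at an unadjusted p under 0.05. Median scaling over the kept probes gave 77 higher and 210 lower. Relative to the median of all probes, the replication genes' median was 0.30 in each of these 3 scalings and 0.27 with quantile normalisation. The 3 scalings shift all probes of an array by the same amount, so their equal values follow from arithmetic and are no check. Array weights gave 3776 probes, 19 replication genes, a median of 0.45 and 26 other genes. With no filter on dim probes these were 4, 0 and 0 (3881 probes unadjusted), with detection p under 0.05 on at least 4 arrays 48, 0 and 0, and with the mean over a gene's probes 9 genes, 0 and 0. The other pathway genes called were 5 with an offset of 50, 4 with detection on all 8 arrays, and 1 each with no background correction, the deposited log2 table, and either variance trend. With the replicate block limma called 4 probes, 0 replication genes and 0 other genes (2413 probes unadjusted). Correlations of same-numbered arrays' deviations were -0.12, -0.02, 0.18 and 0.08, and 1 of 4 G-CSF arrays correlated best with its own number. With so few arrays these values show no pairing by number but cannot exclude it. The cause of these moves was not tested, except that fewer arrays or more dim probes entered where so named. Probes near background limit what can be said of Pole, Ccne1, Clspn, Kif18b, the dimmer Tk1 probe and the dimmer Lig1 probes, which were not detected on every naive array.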

Other observations

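The CCAAT box, read by the factor NF-Y in many cell cycle promoters, was also searched, as CCAAT on both strands. It stood in 23 of the 39 promoter windows of the replication genes (59%), against 37.4% of all 32851 windows. Of the measured genes with a match 14 of 17 had a positive change (median 0.30), and of those without 10 of 13 (median 0.17). A match is only a run of letters and was not tested against the changes.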
